A study of Mus musculus with 2 samples.

Results

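Matrix metalloproteinases (MMPs) and their tissue inhibitors (TIMPs) were followed through UV-positive lung cells, that is, cells sorted for the fluorescence of the retinoids they store. The members were 10 genes picked by symbol, 7 proteases (*Mmp2*, *Mmp3*, *Mmp9*, *Mmp12*, *Mmp14*, *Mmp19* and *Mmp23*) and 3 inhibitors (*Timp1*, *Timp2* and *Timp3*), out of 32285 genes in the count tables. The mice were wild type, C57BL/6, male and 3 months old, the labels name no treatment, and the lungs had been digested with proteases before sorting. The paper names pronase and collagenase for this digestion, while its detailed steps list Dispase II, type IV collagenase and DNase I. The cells were run on separate occasions as 2 single-cell libraries, library 1 and library 2, which are the replicates here (n = 2 throughout). The number of mice behind each library is not given in the sources used here, so the spread between libraries may be technical.

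MMPs are zinc proteases that cut collagens, elastin, proteoglycans and many proteins of the cell surface, and most are made as inactive proenzymes. TIMPs bind the active site and block it. *Mmp14*, an enzyme anchored in the membrane, activates the *Mmp2* proenzyme on the cell surface, and *Timp2* takes part in that step by holding the proenzyme to *Mmp14*. In the lung these enzymes are known for remodelling of the alveolar wall and of the sheaths around vessels and airways. A transcript count says nothing of how much proenzyme is activated.

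Promoter sequence was looked up for the members because several of these genes are textbook targets of AP-1, the dimer of Fos and Jun proteins. RefSeq start sites on GRCm38.p6 matched 7 members with 9 promoters, and *Mmp2*, *Mmp9* and *Mmp19* had no entry. The motif searched was TGANTCA, an AP-1 type motif that reads the same on both strands, in the 300 bases from 250 before to 50 after each start. It was found in 2 of the 9 promoters, that of *Mmp3* (first base at -46 from the start) and 1 of the 2 of *Mmp12* (first base at -44), and in 7.81% of all 32851 promoters. The 200 bases before the start are printed for these 2 and for *Timp1*, whose window lacked the letters searched. They were chosen because *Mmp3* and *Timp1* are among the members that differed between the fibroblast groups described below, and *Mmp12* lies near *Mmp3* on chromosome 9. Capitals mark the motif. The windows are chr9:7445622-7445821 (plus strand) for *Mmp3*, chr9:7347174-7347373 (plus strand) for *Mmp12* and chrX:20869966-20870165 (plus strand) for *Timp1*. A match describes the letters and is not a binding site.
*Mmp3*: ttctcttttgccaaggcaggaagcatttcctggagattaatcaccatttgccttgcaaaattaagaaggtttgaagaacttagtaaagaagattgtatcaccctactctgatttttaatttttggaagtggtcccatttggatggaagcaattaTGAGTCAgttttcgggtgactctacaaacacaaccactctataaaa
*Mmp12*: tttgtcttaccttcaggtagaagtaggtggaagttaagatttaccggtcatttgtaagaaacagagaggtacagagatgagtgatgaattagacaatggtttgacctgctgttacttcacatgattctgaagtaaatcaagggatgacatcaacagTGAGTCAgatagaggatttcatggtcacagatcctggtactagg
*Timp1*: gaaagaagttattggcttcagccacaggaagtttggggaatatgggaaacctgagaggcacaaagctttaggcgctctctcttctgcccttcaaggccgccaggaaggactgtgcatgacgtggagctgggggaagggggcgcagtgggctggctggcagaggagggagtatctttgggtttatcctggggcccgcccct

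Cells with at least 200 genes and at most 10% mitochondrial UMIs (unique molecular identifiers, 1 per captured transcript) were kept, 9634 in library 1 and 9988 in library 2. A cell was placed in a group when exactly 1 of 4 marker gates held 3 or more UMIs. The stromal gate (*Col1a2*, *Mfap4* and *Pdgfra*) was split by *Dcn*, decorin, into adventitial (3 or more UMIs of *Dcn*) and alveolar fibroblasts (none). The groups held 5805 and 5545 alveolar, 1017 and 998 adventitial, 56 and 360 endothelial (*Cdh5*, *Pecam1* and *Egfl7*), 930 and 101 epithelial (*Epcam*, *Cdh1* and *Lamp3*), and 266 and 334 immune cells (*Ptprc*, *Laptm5* and *Cd52*) in libraries 1 and 2. Together these were 15412 of 19622 kept cells (78.5%). Cells that passed 2 or more gates, 4.36% of library 1 and 16.4% of library 2, were left out of the groups, as were stromal cells with 1 or 2 UMIs of *Dcn*. Lists of 5 markers that no gate used were checked against the names. The endothelial, epithelial and immune lists summed to 3586 CPM or more in their own group and to 97.4 CPM or less in any other, where CPM is UMIs per 1000000 UMIs of the group. Alveolar markers (*Npnt*, *Limch1*, *Itga8*, *Slc7a10* and *Ces1d*) summed to 5180 and 6295 CPM in alveolar against 2395 and 4012 in adventitial fibroblasts, so the split by *Dcn* separated the 2 kinds only in part. Library 2 was deeper, with medians of 6545 against 3958 UMIs per alveolar cell and 10656 against 6034 per adventitial cell, and 23 barcodes occurred in both libraries. Levels below are CPM of UMIs summed over a group in a library, counted at the 3′ end and therefore not scaled by transcript length.

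Clear patterns of location were seen in the levels. *Mmp2*, *Mmp3*, *Mmp23* and *Timp1* were transcripts of fibroblasts, and each was highest in the adventitial group. *Timp2*, *Timp3* and, at a lower level, *Mmp14* were also found in endothelial cells. *Mmp9* and *Mmp12* were transcripts of immune cells and were almost absent from fibroblasts. Differences between groups were tested by edgeR on the 10 sums of 5 groups and 2 libraries, with the library as a block, and were called at an adjusted p under 0.05.

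**Figure D1:**
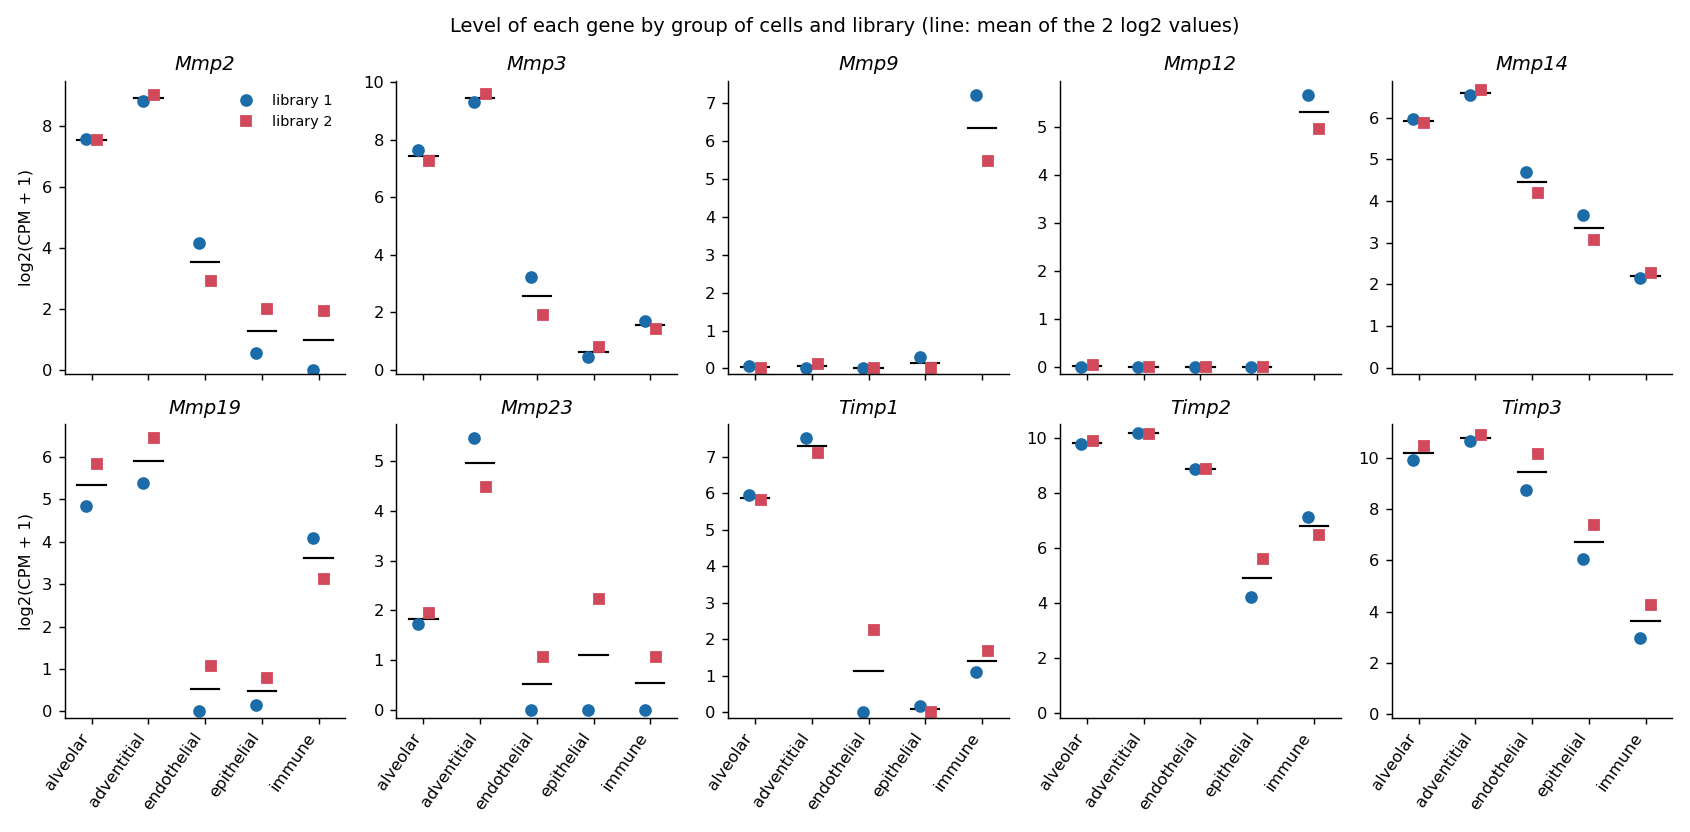
Level of the 10 genes by group of cells. The y axis is log2(CPM + 1), circles are library 1, squares are library 2 and each line is the mean of the 2 values. *Mmp9* (149 and 43.6 CPM) and *Mmp12* (50.2 and 30.3 CPM) stood out in immune cells, and the other 8 were highest in adventitial fibroblasts.

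Adventitial fibroblasts carried more of 5 of the 10 members than alveolar fibroblasts (*Mmp2*, *Mmp3*, *Mmp14*, *Mmp23* and *Timp1*), and less of none. In this comparison 8.71% of all 13326 genes tested were called. The median log2 ratio of the members was 1.02, against -0.03 over all genes tested. The 10 include *Mmp9* and *Mmp12*, which held at most 1 UMI in any fibroblast sum and passed the filter on low counts through the immune sums. Adventitial cells were deeper. All 5 calls held in cells thinned to 2000 UMIs, with log2 ratios from 0.70 (*Mmp14*) to 4.21 (*Mmp23*). For that fit shallower cells were left out and the gates were applied again to the thinned counts. Its groups therefore held partly other cells, and the part of depth alone was not tested.

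*Mmp3* (ENSMUSG00000043613, chr9:7445822-7455975 on GRCm38), stromelysin 1, degrades proteoglycans and activates other MMPs. It stood at 636 and 769 CPM in adventitial and at 199 and 152 CPM in alveolar fibroblasts of libraries 1 and 2. Both adventitial values were above both alveolar ones. The log2 ratio was 2.04 (SE 0.209, adjusted p = 3.02e-06), or 3.32-fold in library 1 and 4.99-fold in library 2. It remained called in DESeq2 (adjusted p = 3.00e-09) and without the block (adjusted p = 0.00395).

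*Mmp2* (ENSMUSG00000031740, chr8:92827291-92853420), gelatinase A, cuts denatured collagen and type IV collagen of basement membranes. It stood at 447 and 519 CPM in adventitial and at 188 and 183 CPM in alveolar fibroblasts, with no overlap. The log2 ratio was 1.40 (SE 0.246, adjusted p = 9.20e-04). The call was lost in DESeq2 (adjusted p = 0.295) and without the block (adjusted p = 0.132), although the size was nearly the same, 1.43 and 1.40.

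*Mmp14* (ENSMUSG00000000957, chr14:54431612-54445364), the membrane enzyme that activates the *Mmp2* proenzyme, showed a smaller difference. Its levels were 92.4 and 99.7 CPM in adventitial and 61.2 and 57.4 CPM in alveolar fibroblasts. The groups did not overlap, and the log2 ratio was 0.73 (SE 0.180, adjusted p = 0.014). DESeq2 (adjusted p = 0.0561) and the fit without the block (adjusted p = 0.359) did not call it.

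*Mmp23* (ENSMUSG00000029061, chr4:155650655-155653384), a membrane-bound member that lacks the usual hemopexin domain, had the largest ratio of the 10 genes at a low level. It stood at 43.0 and 21.2 CPM in adventitial (272 and 246 UMIs) and at 2.30 and 2.84 CPM in alveolar fibroblasts (54 and 110 UMIs). The log2 ratio was 3.59 (SE 0.432, adjusted p = 1.89e-05). The libraries differed in its size, 19.3-fold in library 1 and 7.35-fold in library 2, and DESeq2 did not call it (adjusted p = 0.229). Of the 5 adventitial markers, *Pi16* (204 and 46.5 CPM) and *Serpinf1* (180 and 52.2 CPM) were likewise lower in adventitial cells of library 2, *Col14a1* (284 and 224 CPM) and *Mfap5* (897 and 837 CPM) differed less, and *Dpt* was higher there (494 and 683 CPM). Their summed level was 2059 and 1842 CPM. Their part in the *Mmp23* level was not tested.

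*Timp1* (ENSMUSG00000001131, chrX:20870166-20874735) encodes a secreted inhibitor known to be induced by inflammation. It stood at 182 and 137 CPM in adventitial and at 61.2 and 55.2 CPM in alveolar fibroblasts, again without overlap. The log2 ratio was 1.47 (SE 0.189, adjusted p = 4.08e-05). The call was also made by DESeq2 (adjusted p = 0.0478) and without the block (adjusted p = 0.0287). *Timp1* was thus the 1 inhibitor of the 3 that was called between the fibroblast groups.

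The other inhibitors were abundant in both fibroblast groups. *Timp2* (ENSMUSG00000017466, chr11:118301069-118355740), a secreted inhibitor with a role in *Mmp2* activation, stood at 1171 and 1134 CPM in adventitial and 878 and 947 CPM in alveolar cells. Its log2 ratio was 0.37 (SE 0.291, adjusted p = 0.579). *Timp3* (ENSMUSG00000020044, chr10:86300372-86349506), the inhibitor that binds to the extracellular matrix, stood at 1636 and 1943 CPM against 964 and 1444 CPM, with a log2 ratio of 0.66 (SE 0.267, adjusted p = 0.167). *Mmp19* (ENSMUSG00000025355, chr10:128790910-128800824), a secreted protease of basement membrane proteins, had a similar ratio of 0.63 (SE 0.236, adjusted p = 0.132). For *Mmp19* the libraries stood further apart than the groups, at 27.7 and 55.8 CPM in alveolar and 40.9 and 86.3 CPM in adventitial cells. Its ratio was nevertheless 1.53-fold in library 1 and 1.52-fold in library 2. Without the filter on low counts both *Mmp19* (adjusted p = 0.0451) and *Timp3* (adjusted p = 0.0345) were called.

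**Figure D2:**
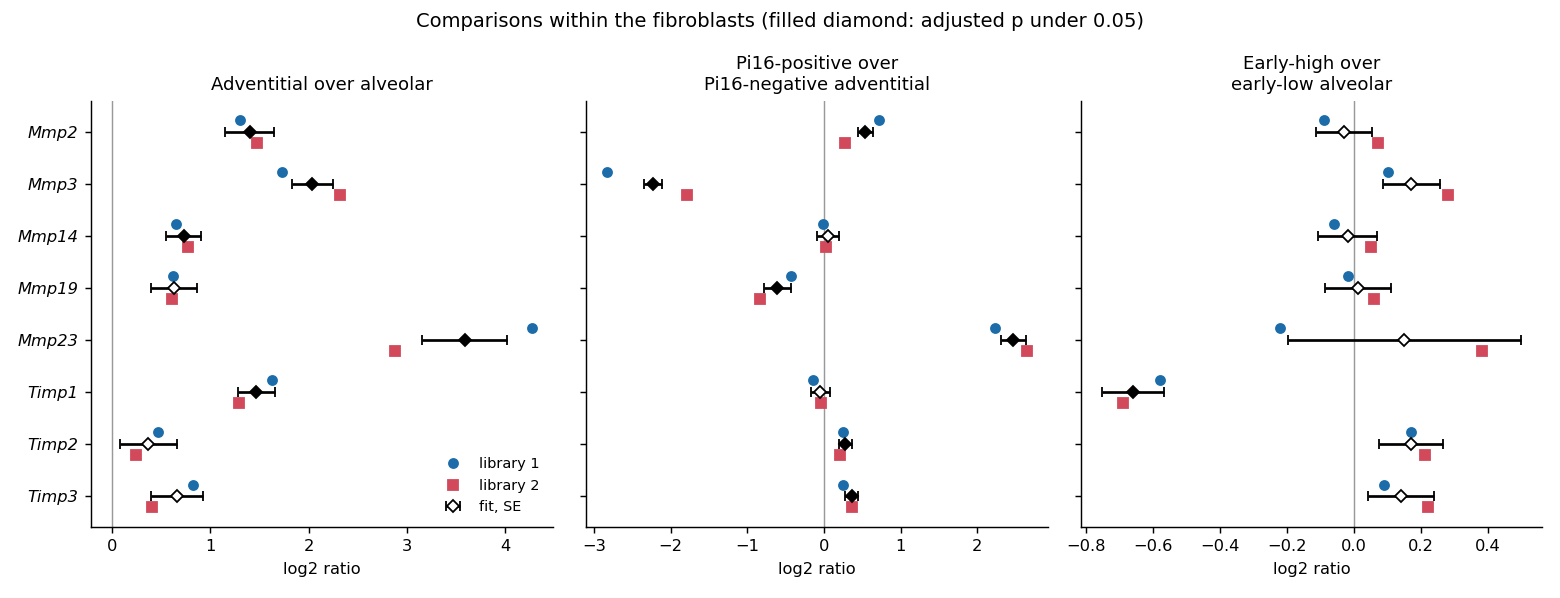
Log2 ratios of 8 genes in 3 comparisons within the fibroblasts. Diamonds are fitted values with their SE, filled where the adjusted p was under 0.05, circles are library 1 alone and squares library 2 alone. *Mmp23* and *Mmp3* lie far to the right between adventitial and alveolar cells, and they part in opposite directions (2.47 and -2.23) between *Pi16*-positive and *Pi16*-negative adventitial cells. The x axes differ in range.

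The fibroblast genes of the same biochemical circuit were not often caught in 1 cell. After thinning, 29.6% and 25.2% of alveolar and 49.8% and 56.9% of adventitial cells held a UMI of *Mmp2*. UMIs of *Mmp2*, *Mmp14* and *Timp2* together were found in 2.96% and 2.54% of alveolar cells and in 7.50% and 8.92% of adventitial cells. At this depth a cell without a UMI cannot be read as lacking the transcript. At least 1 inhibitor was detected in 94.6% and 95.9% of alveolar and 99.1% and 98.8% of adventitial cells, and at least 1 of the 7 proteases in 45.3% and 43.4% and in 72.7% and 80.6%.

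The sum of the inhibitors exceeded that of the proteases in fibroblasts. Summed TIMP over summed MMP levels gave a ratio of 3.98 and 5.42 in alveolar and of 2.37 and 2.15 in adventitial cells. The adventitial values were the lower pair in both libraries. In endothelial cells the ratio was 18.0 and 56.3, in epithelial cells 6.45 and 14.1, and in immune cells 0.665 and 1.19. In immune cells *Mmp9* made up most of the protease sum in library 1 (149 of 221 CPM). The ratios depend on the 7 proteases counted. In epithelial cells *Mmp15*, which is not among them, stood at 143 and 174 CPM beside summed inhibitors of 82.8 and 217 CPM. These ratios count transcripts only and were not tested.

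*Mmp3* differed from the other fibroblast genes in how it was spread among cells, a feature looked up after its values were seen. In thinned cells a UMI of *Mmp3* was found in 8.95% and 7.63% of alveolar cells, and those cells held 3.89 and 3.28 UMIs on average and up to 32 and 27. *Mmp2* was found in 29.6% and 25.2% of alveolar cells, with only 1.28 and 1.32 UMIs in each. *Timp1* was in part like *Mmp3*, in 6.27% and 5.90% of alveolar cells, with 1.58 and 1.46 UMIs in each and up to 20 and 18. Epithelial cells thinned in the same way held *Mmp3* in 0 of 924 cells (exact 95% upper limit 0.398%) and 1 of 101 cells. In adventitial cells 24.5% and 36.0% held *Mmp3*, with 5.40 and 4.49 UMIs each. *Timp2* and *Timp3* were the opposite case, found in 75.4% to 92.3% of fibroblasts.

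**Figure D3:**
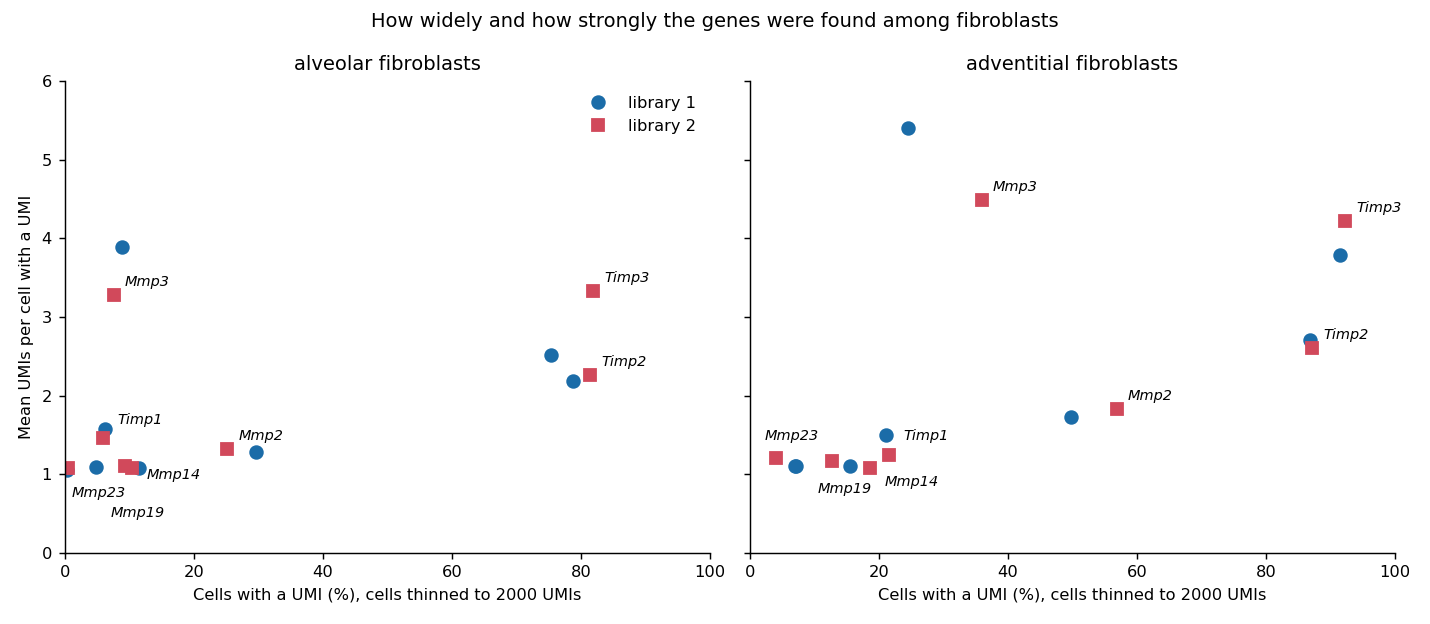
Share of cells with a UMI (x axis, percent) against the mean UMIs in those cells (y axis) for 8 genes, after each cell was thinned to 2000 UMIs, in alveolar (left) and adventitial (right) fibroblasts. Circles are library 1 and squares library 2. *Mmp3* stands apart at the upper left, with 3.89 and 3.28 UMIs per positive cell in 8.95% and 7.63% of alveolar cells.

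Alveolar cells with 3 or more UMIs of *Mmp3* (355 and 376 cells) also held more *Timp1*. Its level was 185 and 116 CPM there, 149 and 82.3 CPM in cells with 1 or 2 UMIs of *Mmp3*, and 42.1 and 46.3 CPM in cells with none. *Mmp2* went the same way by less, at 232 and 307 CPM against 181 and 166 CPM. The *Mmp3*-rich cells were also deeper, with medians of 5197 and 8664 against 3866 and 6358 UMIs, and the part of depth was not tested. The adventitial marker *Col14a1* was higher in them too, at 73.0 and 74.3 CPM against 26.6 and 26.7 CPM in cells without *Mmp3*. The alveolar marker *Npnt* was lower, at 1544 and 2196 against 2032 and 2481 CPM. The part of these markers in the *Timp1* level was not tested, and *Pi16* was too low in alveolar cells to be compared (0.597 and 0.309 CPM in the whole group). In adventitial cells the same split showed no such order for *Timp1*, at 157 and 143 CPM in the *Mmp3*-rich cells (237 and 396) and 191 and 132 CPM in those without *Mmp3*. These splits are a description, since the cells were divided by *Mmp3* itself, and no test was made.

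Within the adventitial fibroblasts, *Mmp3* and *Mmp23* went opposite ways with *Pi16*. Cells with at least 1 UMI of *Pi16*, a peptidase inhibitor that marks fibroblasts of the vascular and airway cuff, numbered 227 and 79 in libraries 1 and 2, and those without numbered 790 and 919. *Mmp3* stood at 114 and 252 CPM in *Pi16*-positive and at 788 and 818 CPM in *Pi16*-negative cells. *Mmp23* stood at 112 and 94.5 CPM in *Pi16*-positive and at 23.0 and 14.3 CPM in *Pi16*-negative cells. In neither gene did the values overlap. The log2 ratio of *Pi16*-positive over *Pi16*-negative was -2.23 for *Mmp3* (SE 0.113, adjusted p = 3.81e-82) and 2.47 for *Mmp23* (SE 0.168, adjusted p = 7.05e-46). Shares of cells showed the same, with *Mmp3* in 12.8% and 17.7% against 38.0% and 58.2% of cells, at similar depths (medians of 6312 and 11166 against 5952 and 10575 UMIs).

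This fit rests on 4 sums with 1 residual degree of freedom, so its p-values lean on a spread shared across genes. DESeq2 called both *Mmp3* (adjusted p = 0.00286) and *Mmp23* (adjusted p = 5.83e-13), and without the block neither was called (adjusted p = 0.4 and 0.292). In the edgeR fit 4 members were called higher and 2 lower of the 8 tested, beside 8.51% of all 10678 genes. The other 4 calls were small, with log2 ratios of 0.54 for *Mmp2* (657 and 646 against 386 and 507 CPM), 0.36 for *Timp3*, 0.28 for *Timp2* and -0.61 for *Mmp19*, and none of them was called by DESeq2 (adjusted p from 0.0828 to 1). *Timp1*, with a log2 ratio of -0.05 (SE 0.125), and *Mmp14*, with 0.05 (SE 0.142), were not called. *Mmp9* and *Mmp12* were too low to be tested there.

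Stromal cells with *Hhip* or *Aspn*, genes of fibroblasts around airways and in the alveolar duct, numbered 116 and 261 by a gate of 3 or more UMIs. They overlapped with the groups above and were not tested. Their *Mmp2* level, 658 and 609 CPM, was above the adventitial level in both libraries, while *Mmp3* was lower, at 177 and 313 CPM. *Mmp23* was 104 CPM in library 1 and 20.8 CPM in library 2.

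Immediate early transcripts varied widely among the alveolar fibroblasts, and the members were compared along that range. Alveolar cells were put in order within their library by the share of UMIs in *Fos*, *Fosb*, *Egr1*, *Junb*, *Ier2* and *Atf3* and cut into 3 equal parts, of which the upper (1935 and 1849 cells, early-high) was set against the lower (early-low). The parts are a range and not cell types, and 795 and 788 cells lay within 10% of a boundary. *Timp1* was at 60.8 and 67.5 CPM in early-low and at 37.0 and 39.8 CPM in early-high cells, a log2 ratio of -0.66 (SE 0.0931, adjusted p = 6.40e-05). It was the 1 member called of the 8 tested, beside 5.94% of all 12248 genes. The call was not made by DESeq2 (adjusted p = 0.112), without the block (adjusted p = 1) or in thinned cells, where the log2 ratio was -0.39 (adjusted p = 0.328). Early-low cells were shallower, with medians of 2706 and 5728 against 4376 and 6832 UMIs. The fit on thinned cells cut the parts again on the thinned counts.

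*Mmp3*, the member with the AP-1 type motif at its start and a level high enough to test, stood at 162 and 147 CPM in early-high and 166 and 127 CPM in early-low cells, values that overlapped. Its log2 ratio of 0.17 (SE 0.0848) was not called. Of the ADAM and ADAMTS proteases described below, 14 were tested here, of which 2 were higher and 1 lower, beside 5.94% of all genes. The largest was *Adamts4*, which cleaves aggrecan and versican, with a log2 ratio of 2.44 (SE 0.266, adjusted p = 2.03e-06). Without the block edgeR called no gene, *Adamts4* included, and 285 genes had an unadjusted p under 0.05.

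Endothelial cells shared *Timp2* and *Timp3* with fibroblasts, but little of *Timp1* and of most proteases. *Timp2* stood at 468 and 471 CPM there (56 and 871 UMIs), 53.4% and 49.7% of the alveolar level, and *Timp3* at 435 and 1140 CPM, 45.1% and 78.9% of it. *Mmp14* was at 41.0% and 30.2% (3 and 32 UMIs). *Timp1* was at 0 and 3.79 CPM (0 and 7 UMIs). In contrast, *Mmp2* was at 8.89% and 3.54% (2 and 12 UMIs) and *Mmp3* at 4.21% and 1.78% (1 and 5 UMIs) of their alveolar levels. The 10 stromal and alveolar markers stood at a median of 4.65% and 2.86% of the alveolar level in the endothelial group, with a range from 1.71% to 17.2% over both libraries. *Timp2*, *Timp3* and *Mmp14* were above that whole range, and *Mmp2* and *Mmp3* were within it. In library 1 *Mmp14*, *Mmp2* and *Mmp3* rested on 3 UMIs or fewer, so their place there is uncertain.

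Alveolar over endothelial, 7 of the 10 members were called higher and none lower, beside 33.0% of genes called. Log2 ratios ran from 0.92 (SE 0.280, adjusted p = 0.0162) for *Timp3* and 1.22 (SE 0.312, adjusted p = 0.00493) for *Timp2* to 5.94 (SE 0.412, adjusted p = 2.15e-09) for *Mmp3*. The smaller 2 were lost in DESeq2 (adjusted p = 0.0719 and 0.0529), and *Timp3* also without the block (adjusted p = 0.325) and in thinned cells (adjusted p = 0.053). Adventitial over endothelial, 8 members were called higher and none lower, beside 33.2%, and *Timp3* lost its call without the block (adjusted p = 0.0752). Over epithelial cells, 7 members were higher in alveolar (beside 51.1%) and 8 in adventitial fibroblasts (beside 48.2%), and none was lower. Members nearly absent from endothelial and epithelial cells passed the filter through the fibroblast sums, so these counts are a description. Epithelial cells held little of any member, the highest being *Timp3* at 64.7 and 168 CPM, *Timp2* at 17.9 and 48.3 CPM and *Mmp14* at 11.7 and 7.32 CPM.

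Endothelial cells exceeded epithelial cells in 5 members and were lower in none, beside 40.4% of genes called. *Timp2*, with a log2 ratio of 3.19 (SE 0.352, adjusted p = 9.31e-07), and *Timp3*, with 2.03 (SE 0.292, adjusted p = 2.02e-05), led these by the depth behind them. The other 3, *Mmp2*, *Mmp3* and *Timp1*, rested on 14, 6 and 7 endothelial UMIs over both libraries, and all of these calls were lost in thinned cells (adjusted p = 0.0697, 0.912 and 0.348). For *Mmp14* no difference was detectable at this depth (log2 ratio 0.09, SE 0.346).

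Within the endothelial cells *Timp2* was highest in aerocyte-like cells. Cells that passed the aerocyte gate (*Car4*, *Ednrb* and *Fibin*) but not the gate of *Gpihbp1*, *Plvap* and *Aplnr*, genes of general capillary cells, held *Timp2* at 1105 and 1182 CPM (11 and 31 cells). Cells that passed the latter gate alone (42 and 219 cells) held it at 244 and 340 CPM. *Timp3* went the same way, at 715 and 1544 against 349 and 1135 CPM. The exclusive gates left out the cells of library 2 that passed both, and over all cells of each gate library 2 held *Timp2* at 658 against 411 CPM and *Timp3* at 1134 against 1097 CPM. These gates were not tested, and the cells of library 1 were few.

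*Mmp9* (ENSMUSG00000017737, chr2:164940780-164955850), gelatinase B, is known as an enzyme of neutrophil granules. It stood at 149 and 43.6 CPM in the immune group, with 131 and 79 UMIs, and at 0 to 2 UMIs in any sum of the other 4 groups. Cells of 2 or more gates, outside the groups, held a further 32 UMIs in each library (19.0% and 28.6% of those in kept cells). Cells of the neutrophil-like gate (*Csf3r*, *Cxcr2* and *Retnlg*, 51 and 30 cells) held 121 of the 131 and 70 of the 79 immune UMIs. Their level was 1569 and 878 CPM, and 88.2% and 93.3% of them held a UMI despite low depth (medians of 1494 and 2300 UMIs). In C1q macrophage-like cells, described next, it was found in 1 of 45 and 2 of 25 cells, at medians of 3964 and 6679 UMIs. The leading genes of the gate against other immune cells were *Retnlg*, *S100a8*, *S100a9* and *Lcn2*. No neutrophil-like cell held a UMI of *Mmp2*, *Mmp3*, *Mmp12*, *Mmp14*, *Mmp19*, *Mmp23* or *Timp1*, which at this depth allows levels of up to 38.9 and 37.6 CPM.

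*Mmp12* (ENSMUSG00000049723, chr9:7344381-7369499), macrophage elastase, degrades elastin. It stood at 50.2 and 30.3 CPM in the immune group (44 and 55 UMIs), and 38 and 44 of these UMIs lay in cells of the C1q macrophage-like gate (*C1qa*, *C1qb* and *C1qc*, 45 and 25 cells), where the level was 211 and 270 CPM. Dendritic-like cells (*Flt3*, *Cd209a* and *Ccl22*) held 149 CPM in library 1 and 29.7 CPM in library 2, and alveolar macrophage-like cells 66.1 and 42.7 CPM. These gates overlap, and C1q macrophage-like cells that passed no other finer gate held 13 and 11 of the UMIs. Cells of the alveolar macrophage or the monocyte gate alone held none, and those of the dendritic gate alone held 6 and 0. Only 28.9% and 36.0% of the C1q macrophage-like cells held a UMI of *Mmp12*, and none of the shallower neutrophil-like cells did. *Timp2* was also highest there among the 8 finer gates, at 394 and 467 CPM.

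**Figure D4:**
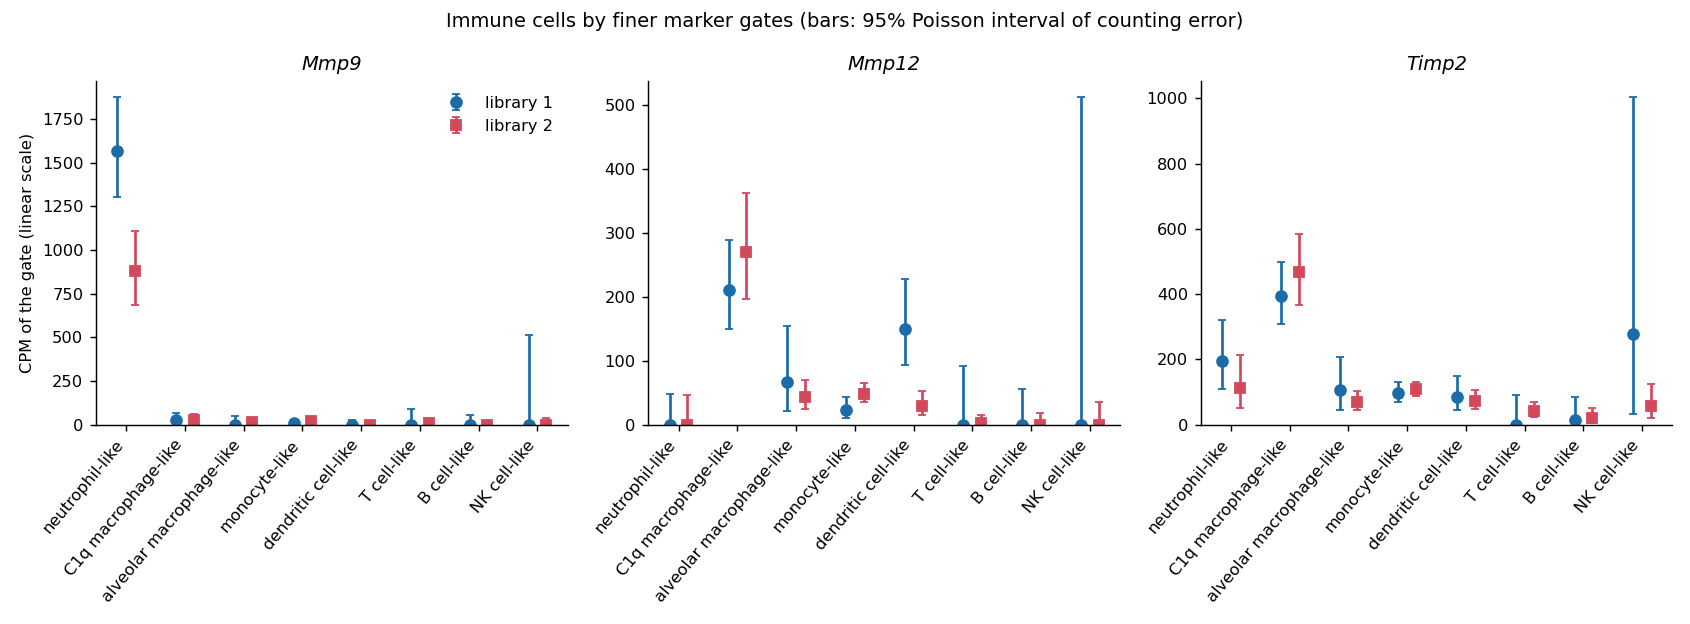
*Mmp9*, *Mmp12* and *Timp2* in immune cells by finer marker gates (x axis). The y axis is CPM on a linear scale, bars are exact 95% Poisson intervals that cover counting error only, and cells may pass more than 1 gate. *Mmp9* rises to 1569 and 878 CPM in neutrophil-like cells, and *Mmp12* to 211 and 270 CPM in C1q macrophage-like cells.

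No UMI of *Mmp12* was found in adventitial, endothelial or epithelial cells. Its immune level was set against the level that 3 UMIs would have made in each library, without the counting error of the immune UMIs. The immune level was 106-fold and 117-fold that level for adventitial, 2.00-fold and 18.7-fold for endothelial and 145-fold and 13.8-fold for epithelial cells. *Mmp9*, at 0 UMIs in endothelial cells, was 5.95-fold and 26.8-fold by the same measure. The alveolar group, with 11350 cells, held 1 UMI of each gene in all.

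Most *Mmp12* UMIs nevertheless lay outside the groups. Cells that passed 2 or more gates held 126 of 172 and 439 of 495 UMIs of *Mmp12* in kept cells (73.3% and 88.7%), all in cells that had passed the immune gate. Those that had passed the stromal and immune gates only (122 and 251 cells) held 126 and 286 of them, at 107 and 64.6 CPM and a median of 8972 and 17356 UMIs. Whether these barcodes hold 2 cells, or 1 cell with transcripts taken up from others, was not tested. The immune level of *Mmp12* therefore describes the cells with no more than 2 UMIs of any other gate.

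Because *Mmp9* and *Mmp12* passed the filter on low counts only through the immune sums, in which they are high, their calls against immune cells are no evidence and are left out of the counts that follow. Of the other 8 members, 7 were called higher in alveolar fibroblasts than in immune cells, beside 52.5% of genes, and 8 in adventitial fibroblasts, beside 50.8%. Members nearly absent from immune cells, such as *Mmp2* (0 and 5 UMIs), *Mmp3* (2 and 3) and *Timp1* (1 and 4), passed the filter through the fibroblast sums. The counts of calls in this paragraph are therefore a description. Endothelial over immune, 3 were higher (*Timp3*, *Timp2* and *Mmp14*) and *Mmp19* was lower, beside 36.1%. Epithelial over immune, *Timp3* and *Mmp14* were higher and *Mmp19*, *Timp1* and *Timp2* lower, beside 48.0%. In thinned cells the calls of *Mmp14* (endothelial over immune, adjusted p = 0.354), *Mmp19* (adjusted p = 0.255 over endothelial and 0.078 over epithelial cells) and, epithelial over immune, *Timp3* (adjusted p = 0.38) and *Timp1* (adjusted p = 0.0802) were lost. The strict gate, with no UMI of the other gates, also lost *Mmp14* endothelial over immune (adjusted p = 0.0945) and *Timp1* epithelial over immune (adjusted p = 0.0509). *Mmp19* was a transcript of fibroblasts with a lower level in immune cells, at 16.0 and 7.72 CPM in the latter (14 UMIs in each library). Alveolar over immune its log2 ratio was 1.75 (SE 0.378, adjusted p = 8.03e-04), which DESeq2 did not call (adjusted p = 0.13).

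The rest of the MMP family was mostly low. Of 16 other MMP genes and *Timp4* listed, 16 were in the tables and 7 passed the filter on low counts. *Mmp1b*, *Mmp7*, *Mmp10*, *Mmp20* and *Mmp21* had no UMI in any of the 10 sums. *Mmp15*, a second membrane-anchored enzyme, was the family's transcript of epithelial and endothelial cells, at 143 and 174 CPM and at 66.9 and 40.6 CPM, against under 1 CPM in each fibroblast sum. Endothelial over epithelial its log2 ratio was -2.59 (SE 0.261, adjusted p = 4.84e-07), the 1 call among the 7 tested, beside 40.4% of all genes. *Mmp8*, neutrophil collagenase, stood at 44.5 and 29.2 CPM in immune cells and at 0 in endothelial and epithelial cells. *Mmp11*, stromelysin 3, was a fibroblast transcript whose level differed between libraries, at 107 and 26.7 CPM in alveolar and 50.4 and 26.8 CPM in adventitial cells. Between the fibroblast groups 1 of the 7 tested was called, beside 8.71% of all genes. It was *Timp4*, the fourth inhibitor, which was lower in adventitial cells (1.26 and 1.38 against 4.57 and 3.48 CPM, log2 ratio -1.52, adjusted p = 0.0455). *Timp4* passed the filter on low counts through the alveolar sums, in which it is highest, so its call is no evidence.

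Of 17 ADAM and ADAMTS proteases, a family that sheds surface proteins and processes the matrix, 15 were tested. Adventitial over alveolar, 2 were higher, 1 was lower and 12 were not called, beside 8.71% of all genes called, with a median log2 ratio of -0.07. The higher ones were *Adamts2*, which trims procollagen (261 and 310 against 92.2 and 118 CPM, log2 ratio 1.47, adjusted p = 5.01e-05), and *Adamts4* (log2 ratio 1.28, SE 0.264, adjusted p = 0.00418). *Adamts10* was lower (log2 ratio -0.69, adjusted p = 0.0319). *Adam8*, a sheddase of leukocytes, stood at 75.3 and 42.5 CPM in immune cells and under 1 CPM in every other sum.

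Of 18 regulators of pericellular proteolysis, among them plasminogen activators and cathepsins, 16 were tested. Adventitial over alveolar, 3 were higher and none lower, beside 8.71% of all genes called. They were *Plaur*, the receptor of urokinase (14.1 and 17.6 against 3.29 and 3.89 CPM, log2 ratio 2.17, adjusted p = 0.00349), *Ctsk*, the collagen-degrading cathepsin K (63.5 and 39.3 against 14.5 and 12.6 CPM, log2 ratio 1.94, adjusted p = 0.00202), and *Plat*, tissue plasminogen activator (146 and 91.9 against 63.6 and 53.2 CPM, log2 ratio 1.04, adjusted p = 0.00804). Between *Pi16*-positive and *Pi16*-negative cells, 4 of the 15 tested were higher and 5 lower, beside 8.51% of all genes. Without the block only 1 gene of all was called in that comparison. *Thbs1*, a matricellular protein, went with *Mmp3* (log2 ratio -1.39, SE 0.0962), as did *Serpine2* (-1.15, SE 0.128), while *Ctsk* went with *Mmp23* (0.90, SE 0.159).

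The genes whose log2(CPM + 1) followed each member most closely over the 10 sums are given as a description, since the sums share libraries and cell types. *Mmp3* was followed by *Adamts2* (Pearson r = 0.997) and *Fbln1* (r = 0.994), *Mmp2* by *Numbl* (r = 0.994) and *S1pr3* (r = 0.988), and *Timp1* by the complement genes *C4b* and *Cfb* (r = 0.994 for both). *Mmp9* was followed by *Trem3* and *Trem1* (r = 0.999 for both) and *Mmp12* by *Cd300ld* and *Treml4*, genes of myeloid cells. *Mmp19* was followed by *Igf1* and *Gas7* (r = 0.985 for both), *Mmp14* by *Poglut3* (r = 0.982), *Timp2* by *Tnfsf12* (r = 0.984), *Timp3* by *Zfp30* (r = 0.991) and *Mmp23*, with the weakest likeness, by *Ahnak2* (r = 0.948).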

How the data were processed

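UV-positive lung cells were sequenced by the authors with 10x Genomics 3′ v3.1 chemistry. The authors deposited filtered matrices of raw UMI counts per gene and barcode, without normalization, made with Cell Ranger 5.0.1 on mm10 per the submitters' processing notes. Library 1 held 48762735 and library 2 held 93970185 UMIs, in 9669 and 10050 barcodes. Intervals and floors (3 UMIs) cover counting error only.

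Marker gates were set at 3 UMIs, and no doublet caller was run beyond leaving out cells of 2 or more gates. UMIs were summed per group and library and compared with edgeR 4.0.16 (R 4.3.3; TMM, filterByExpr and two-sided quasi-likelihood tests). The library entered each fit as a block. Benjamini-Hochberg adjustment ran over all genes tested. The groups of a library share 1 suspension, which is where the pairing comes from. On simulated counts the fit recovered 93 of 100 genes changed by 1 and 100 of 100 changed by 2 on the log2 scale (adventitial over alveolar, with 8 false calls). For *Pi16*-positive over *Pi16*-negative these were 60 and 96, with 13 false calls, and for early-high over early-low 76 and 100, with 6. The simulated counts had a fixed dispersion, the same profile in every group and no library effect, and only well-counted genes were changed. They therefore do not show how the fits behave with the spread between the real libraries.

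Alternatives were DESeq2 size factors within edgeR, DESeq2 1.42.0, no filter, no block, each library alone, other gates, cells thinned to 2000 UMIs and at most 5% mitochondrial UMIs. Fits on thinned cells drew the gates and splits again on the thinned counts, while shares of thinned cells kept the groups of the full counts. Besides the members, 3 lists (other MMPs with *Timp4*, ADAM and ADAMTS proteases, regulators of pericellular proteolysis) were counted, naming up to 4 called genes by size per comparison, and for each member the 2 genes most like it among those with a mean of at least 10 CPM. The members and lists were chosen with earlier results of these data known. The splits by *Mmp3*, the spread among cells and the gate combinations were chosen after values were seen. Not every gene that the naming rule picked is reported here.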

Additional observations from a re-analysis of the deposited data

How the results depend on the processing

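Of 116 member comparisons, 79 were called, beside 5.94% to 52.5% of all genes tested, depending on the comparison. The 79 include the calls of *Mmp9* and *Mmp12* against immune cells, which are no evidence. They also include calls of members that passed the filter through the fibroblast sums, which are a description. Over the alternatives, 1093 of 1212 values kept their side of the threshold or, in single libraries, moved by no more than the spread. A further 47 lost their call, 6 gained one, 65 single-library values moved and 1 called value reversed. Changes of sign in uncalled comparisons were not counted as reversals. *Mmp2* epithelial over immune, for instance, was -0.73 in the fit but 5.69 and 0.34 in libraries 1 and 2 alone. The reversed value was *Timp1* endothelial over epithelial, 4.49 over both libraries, -3.78 in library 1 alone, where endothelial cells held 0 and epithelial cells 1 UMI, and 7.88 in library 2 alone, where they held 7 and 0, so that these ratios depend on the prior count. DESeq2 also lost *Mmp12* endothelial over immune (adjusted p = 0.29) and epithelial over immune (adjusted p = 0.114). Most lost calls came with DESeq2 (15), no replicate block (13) and thinning (12). The cause was not tested. Thinning left fewer counts and also changed which cells made up the groups.

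Counts of called genes moved by more than 1.5 times as follows. Adventitial over alveolar gave 1161 genes, 521 with DESeq2, 254 with no replicate block and 685 when thinned. *Pi16*-positive over *Pi16*-negative gave 909, 200 with DESeq2, 1 with no replicate block and 148 when thinned. Early-high over early-low gave 727, 150 with DESeq2, 230 when thinned and 0 with no replicate block in edgeR, where 285 had an unadjusted p under 0.05. Thinning lowered the other counts to 3823 (alveolar over epithelial), 4611 (alveolar over immune), 2740, 3419 and 4185 (adventitial over endothelial, epithelial and immune), 2885 and 3163 (endothelial over epithelial and immune) and 3598 (epithelial over immune). Each library alone gave values with no test. DESeq2 size factors shifted the median of all genes by over 0.1 only alveolar over immune, from 0.18 to 0.04, and changed no member's call. The block also changed no call other than the 13.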

Other observations

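Stromal cells with 1 or 2 UMIs of *Dcn*, which belonged to neither fibroblast group (823 and 895 cells), held *Mmp3* at 599 and 415 CPM, *Mmp2* at 278 and 325 CPM and *Timp1* at 130 and 135 CPM, values between those of alveolar and adventitial cells in both libraries. *Mmp23* was at 5.03 and 4.73 CPM there, nearer to the alveolar level. Cells that passed none of the gates (317 and 115) held *Timp3* at 743 and 1126 CPM and *Timp2* at 657 and 437 CPM, with medians of 997 and 1279 UMIs per cell. *Mmp3* was at 186 CPM in these cells of library 1 and at 18.6 CPM in those of library 2 (83 and 4 UMIs), and *Mmp14* stood at 40.4 and 46.5 CPM.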
